A study of Mus musculus with 12 samples.

Results

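Transcripts of 10 genes that act as brakes on, or are readouts of, the ERK kinases were followed in mouse pre-B leukemia cells after stabilization of β-catenin and after editing of the Ikaros genes Ikzf1 and Ikzf3. They are the dual-specificity phosphatases Dusp2, Dusp4, Dusp5, Dusp6 and Dusp7, the Sprouty genes Spry1 and Spry2, their relatives Spred1 and Spred2, and the transcription factor gene Etv5. The genes were chosen by symbol, with no threshold on their values but with earlier results of these data known. All 10 were among the 12151 genes of the expression table. Pre-B cells grown from bone marrow of mice aged 6 to 12 weeks had been transformed with the BCR-ABL1 oncogene, which makes them a laboratory model of B-lineage acute lymphoblastic leukemia (B-ALL). Every group carried 1 Ctnnb1 allele with a floxed exon 3 (Ctnnb1Ex3fl/+). Losing that exon removes the phosphorylation sites that mark β-catenin for degradation.

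The 12 libraries formed 4 groups of 3 replicates. ERT2 WT and Cre-ERT2 WT cells had been electroporated with Cas9 and nontargeting guides (sgNTC). ERT2 KO and Cre-ERT2 KO cells had received guides against Ikzf1 and Ikzf3 and were grown as colonies from single cells. The paper also describes clones that are wild type for both Ikaros genes. ERT2, the tamoxifen-binding receptor domain alone, served as the control vector, and Cre-ERT2 excised exon 3 once 4-hydroxytamoxifen (4-OHT) was given. Both vectors expressed GFP, and GFP+ cells were sorted. The protocol names day 1 after 4-OHT, in a sentence written for chromatin experiments. Nothing in the labels ties replicates to separate clones or cultures, so the P values measure the spread between these libraries, which may be technical. Differences between edited and unedited cells cannot be told apart from differences between clones, nor can the presence of Cre be told apart from β-catenin stabilization.

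In ERK signaling, RAS activates the RAF, MEK and ERK kinases in turn, and active ERK induces genes whose products shut the pathway down again. Dual-specificity phosphatases of this class remove both activating phosphates from ERK. DUSP2, DUSP4 and DUSP5 do so in the nucleus and DUSP6 and DUSP7 in the cytoplasm. Sprouty and SPRED proteins act further upstream and dampen the activation of RAS and RAF, the SPREDs by bringing the RAS inhibitor neurofibromin to the membrane. ETV5 is an ETS-family transcription factor of the PEA3 group whose transcript is widely used as a readout of ERK activity. BCR-ABL1, a tyrosine kinase, feeds into this pathway, and so does the pre-B cell receptor.

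Values are log2 expression normalized by the authors, and changes are differences of these log2 values. They compare a gene between libraries and not different genes with each other. Sequencing depth is unknown. Library medians lay between 9.06 and 9.11. All 13 pre-B cell markers examined were expressed, with Cd79a, a signaling chain of the B cell receptor, at the 99.3rd percentile of all genes. Their summed level (log2) was 17.02 to 17.04 in ERT2 WT, 16.98 to 17.01 in Cre-ERT2 WT, 16.62 in each ERT2 KO library and 16.53 to 16.55 in Cre-ERT2 KO libraries. Of 6 myeloid markers, Lyz2 and Itgam were measured, and their summed level ran from 7.57 to 7.62 in WT libraries and from 8.45 to 8.76 in KO libraries. This sum follows Lyz2, which rose by 0.99 after editing in ERT2 cells. Itgam, at a level of only 4.51 to 4.74, changed by -0.15. Single pre-B markers did not all follow their sum after editing in ERT2 cells. Rag1 and Rag2 rose by 0.32 and 0.38, and the other markers changed by -0.030 (Pax5) to -0.82 (Il7r). The pre-B and myeloid sums move with the editing comparisons below. Of 6 T cell markers, Cd5 was measured, at 6.65 to 6.67 in ERT2 WT, 7.09 to 7.24 in Cre-ERT2 WT, 6.77 to 6.83 in ERT2 KO and 7.76 to 7.88 in Cre-ERT2 KO libraries. It moves with the β-catenin comparisons (0.51 in WT and 1.02 in KO cells). The part of these markers in the results was not tested. No value of the 4 erythroid and 4 stromal markers was used here. In bulk RNA, fewer cells of a type and less RNA per cell cannot be told apart. Ikzf3 mRNA was lower in the libraries labelled KO (-0.65 in ERT2 and -0.70 in Cre-ERT2 cells), but Ikzf1 mRNA was higher by 1.01 and 0.90. Gene-level values do not show frameshifts, and KO below means the libraries labelled KO.

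The DNA upstream of 3 of these genes is shown because their transcripts moved in every comparison, Dusp5 down and Dusp6 and Etv5 up. For Dusp6, the β-catenin change in KO cells was near the threshold of the test, as given below. Each stretch ends at the base before the annotated gene start and is written 5′ to 3′ on the gene's strand, from the RefSeq windows of build GRCm38.p6. Capitals mark matches to GGGAA, the core of Ikaros binding sites, in either orientation (TTCCC on the reverse strand), and to the CArG box that serum response factor binds. Dusp5 (chr19:53528895-53529108, plus strand), Dusp6 (chr10:99262981-99263230, plus strand) and Etv5 (chr16:22439720-22439820, minus strand) read:
Dusp5: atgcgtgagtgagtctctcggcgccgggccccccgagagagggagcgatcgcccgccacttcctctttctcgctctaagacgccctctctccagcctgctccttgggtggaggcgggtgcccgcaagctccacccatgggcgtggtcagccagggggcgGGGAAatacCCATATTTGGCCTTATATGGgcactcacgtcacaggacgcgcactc
Dusp6: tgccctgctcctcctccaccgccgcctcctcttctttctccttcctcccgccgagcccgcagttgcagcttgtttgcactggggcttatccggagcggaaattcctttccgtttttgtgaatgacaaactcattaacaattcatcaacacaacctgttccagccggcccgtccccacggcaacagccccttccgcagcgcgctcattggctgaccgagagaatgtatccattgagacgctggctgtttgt
Etv5: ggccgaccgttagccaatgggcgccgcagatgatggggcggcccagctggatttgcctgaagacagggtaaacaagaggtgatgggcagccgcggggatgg
The Dusp5 stretch, 65% G and C, holds 1 GGGAA and, a few bases further on, 2 adjoining CArG boxes. The Dusp6 and Etv5 stretches hold neither motif.

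RefSeq windows of 300 bases, from 250 bases before to 50 after the start, were at hand for 9 of the 10 genes, all but Dusp4. GGGAA or its reverse complement occurred in 5 of the 9 (Dusp2, Dusp5, Spry2, Spred1 and Spred2), against 62.7% of all 32851 mouse windows of that length. CTTTGAT, a binding sequence of the TCF/LEF partners of β-catenin (reverse ATCAAAG, which 3.73% of all windows hold), occurred in none of the 9. CCGGAAG, an ETS binding sequence (reverse CTTCCGG, 8.86% of windows), also occurred in none. The CArG box was searched after the Dusp5 sequence had been read. It occurred in the Dusp5 window alone among the 9, and in 1.63% of all windows. The motifs do not overlap each other in the Dusp5 window.

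Of the 10 genes, 4 were called in the same direction in all 4 comparisons, at an adjusted p under 0.05 from a limma fit over all genes. That pattern can hold for at most 4.68% of all genes, the share called in the same direction for β-catenin in both backgrounds. Etv5, Dusp4 and Dusp6 were higher upon β-catenin stabilization in both backgrounds and higher in KO than in WT cells with either vector. Dusp5 was lower in each. The Dusp6 call for β-catenin in KO cells (limma adjusted p 0.0438) was lost in 14 of 22 alternatives. Its place among the 4 genes therefore depends on the processing. Dusp7 moved in opposite directions under the 2 perturbations, falling upon β-catenin stabilization and rising after editing. Spred1 and Spred2 rose after editing and were not called for β-catenin. Each β-catenin comparison shares its libraries with the editing comparisons, 3 with each, so the 4 results are not independent of one another.

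**Figure D1:**
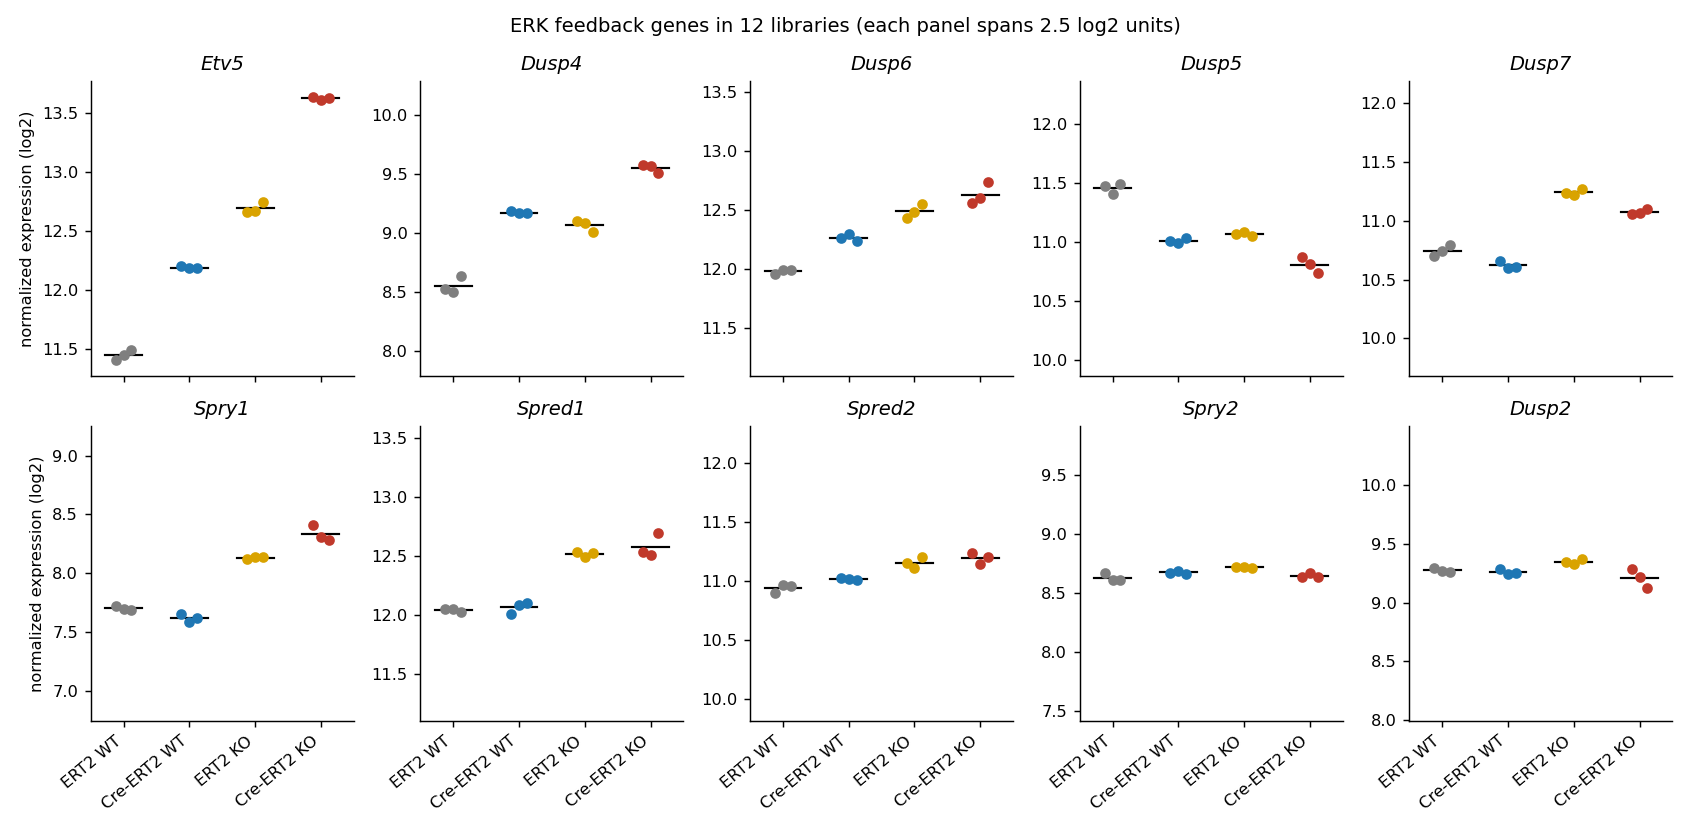
Normalized expression (log2, vertical axis) of the 10 genes in each of the 12 libraries, by group (horizontal axis). Points are single libraries, bars are group means, and each panel spans the same range of log2 units. Etv5 climbs from 11.45 in ERT2 WT to 13.63 in Cre-ERT2 KO libraries, and Dusp5 descends from 11.46 to 10.80.

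The β-catenin comparison in WT cells asked what stabilized β-catenin does to these transcripts with the Ikaros genes unedited. Here 3 of the 10 genes were called higher (background 5.93% of all genes) and 2 lower (5.95%), and in 7 of 10 the groups did not overlap (31.1%). Their median change was 0.034, against 2.18e-05 over all genes, and 4 of 10 changed by at least 0.25 in either direction, as did 2.29% of all genes. In KO cells 4 genes were called higher (background 7.27%) and 3 lower (5.33%), with 8 of 10 free of overlap (28.3%), a median change of 0.049 against -0.00041, and 3 changes of at least 0.25 (2.58%). A total of 5 genes were called in the same direction in both backgrounds, compared with 4.68% of all genes. They include Dusp6, whose call in KO cells was lost in 14 of 22 alternatives, and Dusp7, whose call in WT cells was lost in 4 of 22.

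Ikzf1 and Ikzf3 editing was compared separately in ERT2 and in Cre-ERT2 cells. In ERT2 cells 8 of the 10 genes were called higher in KO (background 29.8%) and 1 lower (29.3%), and the groups were free of overlap in all 10 (65.5%). The median change of the 10 was 0.45, whereas that of all genes was 0.0016, and 7 changed by at least 0.25 (21.8% of all genes). In Cre-ERT2 cells 7 were called higher (30.4%) and 1 lower (28.6%), 8 were free of overlap (63.6%), the median was 0.37 against 0.0016, and 6 changed by at least 0.25 (22% of all genes). A total of 8 genes were called in the same direction with both vectors, where the background was 49%.

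**Figure D2:**
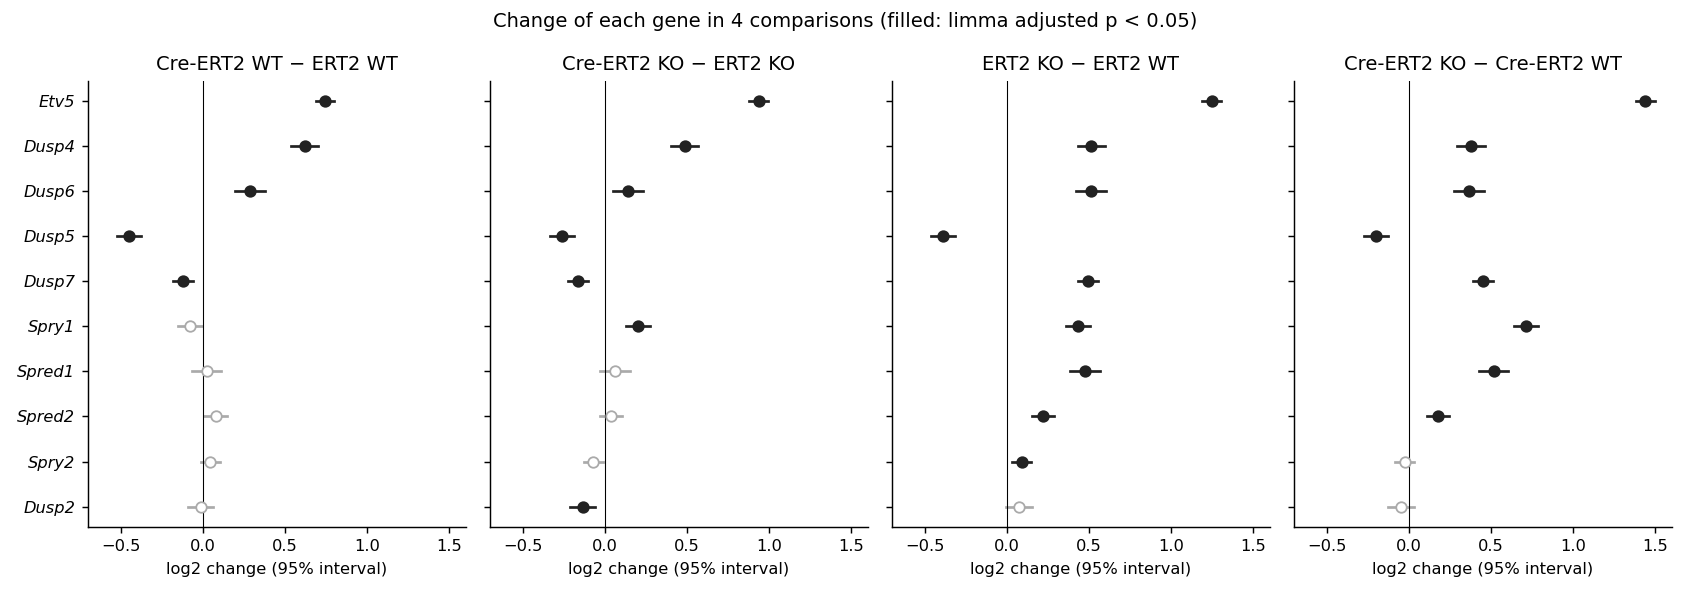
Log2 change of each gene (horizontal axis) with its 95% interval in the 4 comparisons, 1 panel each, with genes on the vertical axis. Filled points were called at a limma adjusted p under 0.05. Most points lie to the right of 0 in the 2 editing panels, while in the β-catenin panels Etv5, Dusp4 and Dusp6 lie to the right and Dusp5 and Dusp7 to the left.

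Etv5 (ENSMUSG00000013089, chr16:22381309-22439719, minus strand) had the largest change of the 10 genes in each of the 4 comparisons. Its level was 11.40, 11.45 and 11.49 in ERT2 WT libraries and 12.20, 12.19 and 12.18 in Cre-ERT2 WT libraries. In KO cells it was 12.66, 12.67 and 12.74 with ERT2 and 13.64, 13.61 and 13.63 with Cre-ERT2. The 4 groups followed each other without overlap, and ERT2 KO cells, without stabilized β-catenin, already lay above Cre-ERT2 WT cells. β-catenin stabilization raised Etv5 by 0.74 in WT cells (1.68-fold, SE 0.026, limma adjusted p 2.26e-09) and by 0.94 in KO cells (1.91-fold, adjusted p 1.46e-10). They stood at places 14 of 720 and 16 of 883 among the called rises. Editing raised it by 1.25 in ERT2 cells (2.37-fold, adjusted p 6.83e-13) and by 1.44 in Cre-ERT2 cells (2.71-fold, adjusted p 1.74e-13). Cells with both perturbations held 4.54-fold more Etv5 mRNA than cells with neither.

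Among the nuclear phosphatases, Dusp4 and Dusp5 moved in opposite directions. Dusp4 (ENSMUSG00000031530, chr8:34807297-34819894, plus strand) measured 8.52, 8.50 and 8.64 in ERT2 WT, 9.18, 9.17 and 9.16 in Cre-ERT2 WT, 9.10, 9.09 and 9.01 in ERT2 KO, and 9.58, 9.57 and 9.51 in Cre-ERT2 KO libraries. Either perturbation alone brought it to a similar level, and the 2 middle groups stayed apart by a narrow gap, from 9.10 to 9.16. It rose with β-catenin by 0.62 in WT cells (1.54-fold, SE 0.038, limma adjusted p 4.71e-07) and by 0.48 in KO cells (39.9% more, adjusted p 2.94e-06). Editing raised it by 0.51 in ERT2 cells (adjusted p 1.4e-07) and by 0.38 in Cre-ERT2 cells (adjusted p 2.47e-06). With both perturbations it stood 1.996-fold above ERT2 WT cells.

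Dusp5 (ENSMUSG00000034765, chr19:53529109-53542431, plus strand) gave the mirror order. It measured 11.47, 11.41 and 11.49 in ERT2 WT libraries, higher than in any other library. Values were 11.00, 10.98 and 11.03 in Cre-ERT2 WT and 11.06, 11.08 and 11.05 in ERT2 KO, so that either perturbation alone lowered it to nearly the same level, with a gap from 11.03 to 11.05 between the 2 groups. Cre-ERT2 KO libraries were lowest at 10.87, 10.81 and 10.73. With β-catenin it changed by -0.45 in WT cells (-26.8% on the linear scale, SE 0.034, limma adjusted p 2.84e-06), place 6 among the 723 called falls, and by -0.26 in KO cells (-16.5%, adjusted p 0.000226). After editing it changed by -0.39 in ERT2 cells (-23.8%, adjusted p 5.65e-07) and by -0.20 in Cre-ERT2 cells (-13.2%, adjusted p 0.000195). Each fall exceeded the replicate spread. By exact permutation, with 3 libraries on each side, none of the 4 can reach a 2-sided p below 0.1, and all 4 gave that value.

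Dusp2 (ENSMUSG00000027368, chr2:127336159-127338376, plus strand), the other nuclear phosphatase, differed least. Its levels were 9.26 to 9.29 in ERT2 WT, 9.24 to 9.28 in Cre-ERT2 WT, 9.33 to 9.37 in ERT2 KO and 9.13 to 9.29 in Cre-ERT2 KO libraries. It fell by 0.14 with β-catenin in KO cells (limma adjusted p 0.0265), a call that was lost in 7 of 22 alternatives. Leaving out any ERT2 KO replicate, or Cre-ERT2 KO replicate 2 or 3, gave adjusted p values between 0.0524 and 0.09. Its other changes lay between -0.050 and 0.073 and were not called. The editing differences were called when Cre-ERT2 KO replicate 1 was left out (limma adjusted p 0.048 with ERT2 and 0.0348 with Cre-ERT2). The ERT2 difference was also called without Cre-ERT2 KO replicate 3 (adjusted p 0.0368) and with only the compared groups fitted (adjusted p 0.0413). With libraries centered on their medians, the Cre-ERT2 difference was called (-0.083, adjusted p 0.0481).

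The cytoplasmic phosphatases parted under β-catenin. Dusp6 (ENSMUSG00000019960, chr10:99263231-99267489, plus strand), the main ERK-specific phosphatase of the cytoplasm, measured 11.95, 11.99 and 12.00 in ERT2 WT, 12.26, 12.30 and 12.24 in Cre-ERT2 WT, 12.44, 12.49 and 12.55 in ERT2 KO, and 12.56, 12.60 and 12.73 in Cre-ERT2 KO libraries. Its levels followed the same order of groups as Etv5, but the 2 KO groups almost touched, at 12.55 and 12.56. β-catenin raised it by 0.29 in WT cells (1.22-fold, SE 0.041, limma adjusted p 0.000645). The rise of 0.14 in KO cells (adjusted p 0.0438) was lost in 14 of 22 alternatives, among them the omission of any 1 of 10 libraries (all 6 WT libraries, ERT2 KO replicates 1 and 2, and Cre-ERT2 KO replicates 2 and 3; adjusted p 0.0543 to 0.155). Without Cre-ERT2 KO replicate 3, the highest library, it was 0.089. Editing raised Dusp6 by 0.51 in ERT2 cells (1.42-fold, adjusted p 3.12e-07) and by 0.37 in Cre-ERT2 cells (1.29-fold, adjusted p 6.84e-06).

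Dusp7 (ENSMUSG00000053716, chr9:106368632-106375724, plus strand), its closest relative here, was lowest in the WT cells with stabilized β-catenin and highest in edited cells without it. The libraries measured 10.70, 10.74 and 10.79 in ERT2 WT, 10.66, 10.60 and 10.61 in Cre-ERT2 WT, 11.24, 11.22 and 11.27 in ERT2 KO, and 11.05, 11.07 and 11.10 in Cre-ERT2 KO. Editing raised it by 0.49 with ERT2 (1.41-fold, SE 0.028, limma adjusted p 9.86e-09) and by 0.45 with Cre-ERT2 (1.37-fold, adjusted p 2.24e-08). With β-catenin it fell by 0.12 in WT cells (adjusted p 0.0123) and by 0.17 in KO cells (adjusted p 0.00174). The fall in WT cells was no longer called without ERT2 WT replicate 3 or Cre-ERT2 WT replicate 2 or 3 (adjusted p 0.0502 to 0.0532).

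Of the Sprouty genes, Spry1 responded and Spry2 hardly did. Spry1 (ENSMUSG00000037211, chr3:37639947-37644598, plus strand), whose product blocks RAS activation downstream of growth factor receptors, measured 7.72, 7.70 and 7.69 in ERT2 WT and 7.66, 7.59 and 7.63 in Cre-ERT2 WT libraries, a difference of -0.08 (not called, adjusted p 0.171 by limma). In KO cells it measured 8.12, 8.13 and 8.14 with ERT2 and 8.41, 8.31 and 8.29 with Cre-ERT2, a rise of 0.20 (1.15-fold, SE 0.033, adjusted p 0.00149). Its level was thus higher in every KO library than in any WT library. The editing difference was 0.43 in ERT2 cells (1.35-fold, adjusted p 2.12e-07) and 0.71 in Cre-ERT2 cells (1.64-fold, adjusted p 1.53e-09).

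Spry2 (ENSMUSG00000022114, chr14:105891947-105896819, minus strand), which acts at the same step, stayed between 8.61 and 8.72 in all 12 libraries. It rose by 0.09 after editing in ERT2 cells (limma adjusted p 0.0106), a call lost when libraries were centered on their medians (adjusted p 0.0711) or quantile normalized (adjusted p 0.123). Its other changes, 0.04 and -0.07 with β-catenin and -0.03 after editing in Cre-ERT2 cells, were not called, and their 95% intervals lay within -0.13 and 0.10.

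The Spred genes followed the editing status. Spred1 (ENSMUSG00000027351, chr2:117121374-117182279, plus strand) measured 12.04, 12.05 and 12.02 in ERT2 WT and 12.01, 12.08 and 12.10 in Cre-ERT2 WT libraries, which overlapped. KO libraries lay higher, at 12.53, 12.49 and 12.52 with ERT2 and at 12.53, 12.50 and 12.69 with Cre-ERT2, and these overlapped as well. Editing raised Spred1 by 0.48 (1.39-fold, SE 0.041, limma adjusted p 6.18e-07) and 0.51 (1.43-fold, adjusted p 2.75e-07), whereas the β-catenin changes of 0.02 (95% interval -0.068 to 0.11) and 0.06 (-0.029 to 0.15) were not called. Spred2 (ENSMUSG00000045671, chr11:19924375-20024026, plus strand) measured 10.89 to 10.96, 11.01 to 11.03, 11.11 to 11.21 and 11.14 to 11.23 across the groups in the order used for Spred1. Its rises after editing, 0.22 (1.16-fold, adjusted p 6.44e-05) and 0.18 (1.13-fold, adjusted p 0.000368), were also called. Its β-catenin changes, 0.08 in WT cells (95% interval 0.0090 to 0.15) and 0.04 in KO cells (-0.033 to 0.10), were not called (limma adjusted p 0.146 and 0.535). In WT cells the interval lay above 0 and the groups did not overlap.

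Whether editing altered the response to β-catenin was tested as the difference of the 2 responses, which is also the difference of the 2 editing effects. It is given as the response in KO minus that in WT cells, so a positive difference can be a larger rise or a smaller fall. Of the 10 genes, 3 were called with a positive difference (background 2.71%) and 0 with a negative one (1.82%) by limma. At an unadjusted p under 0.05, 7 of the 10 differed, among them Dusp2, Dusp4, Dusp6 and Spry2, whose differences were negative. The share of all genes at this unadjusted threshold is not given, here or for the lists below, so such counts have no background. For Spry1 the response went from -0.08 in WT to 0.20 in KO cells, a difference of 0.28 (SE 0.047, limma adjusted p 0.00473) that was called in all 21 alternatives. The Etv5 response grew by 0.19 (SE 0.037, adjusted p 0.0106).

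For Dusp5 the difference was also 0.19 (SE 0.048, adjusted p 0.0457), since its fall of 0.45 in WT cells shrank to 0.26 in KO cells, where it started from a lower level. This call was lost in 13 of 21 alternatives, with adjusted p values from 0.0683 to 0.106 when any 1 of 10 libraries was left out (all but ERT2 WT replicate 2 and Cre-ERT2 KO replicate 3). The differences of Dusp4 (-0.14, limma adjusted p 0.214) and Dusp6 (-0.14, adjusted p 0.221) had the opposite sign and were not called. Their responses were likewise smaller in KO cells, with rises of 0.62 and 0.48 for Dusp4 and 0.29 and 0.14 for Dusp6 in WT and KO cells. The Dusp6 difference was called without Cre-ERT2 KO replicate 3 (-0.20, adjusted p 0.0269). Dusp7, Spred1 and Spred2 had differences between -0.043 and 0.039, with 95% intervals inside -0.14 and 0.17. Spry2 and Dusp2 both gave -0.12 (adjusted p 0.11 and 0.232).

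**Figure D3:**
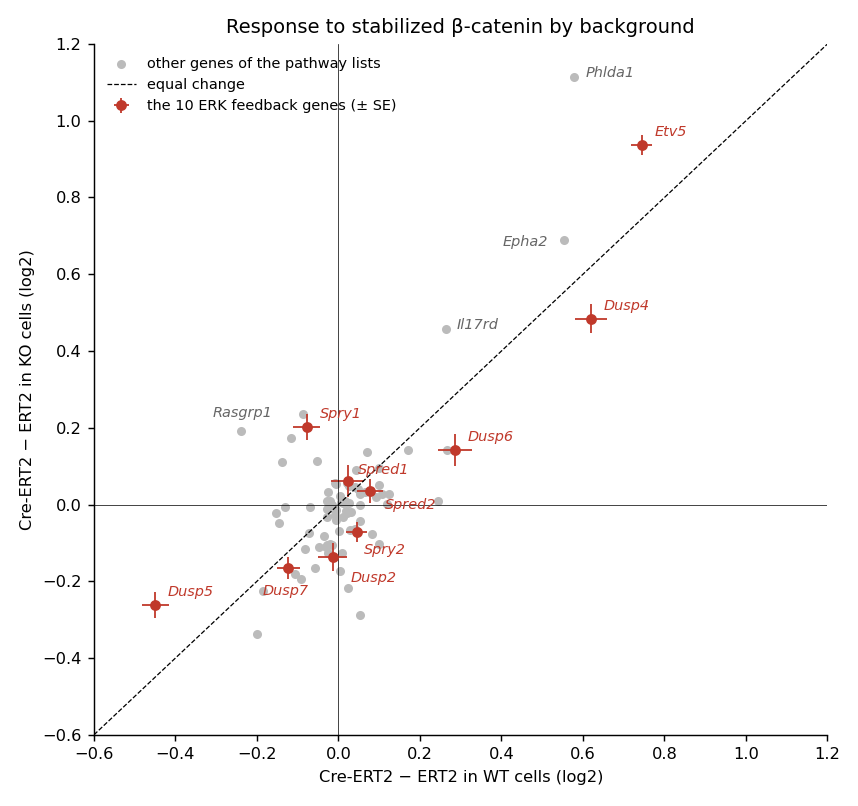
Response to stabilized β-catenin (log2, Cre-ERT2 minus ERT2) in WT cells (horizontal axis) and KO cells (vertical axis). Red points are the 10 genes (± SE), grey points are 78 other genes of the pathway lists, and the dashed line marks equal response. Spry1 lies above the line at -0.08 and 0.20, Etv5 above it at 0.74 and 0.94, and Dusp5 above it at -0.45 and -0.26.

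The 10 genes were set beside 78 other measured genes in 7 lists, which cover ERK signaling and the gene families of the 10. With β-catenin, 7 of the 78 were called higher and 5 lower in WT cells (5.93% and 5.95% of all genes), and 6 higher and 9 lower in KO cells (7.27% and 5.33% of all genes). After editing, 35 were called higher and 16 lower in ERT2 cells (29.8% and 29.3% of all genes), and 32 and 20 in Cre-ERT2 cells (30.4% and 28.6%). The same shares of all genes are the background for each list below. All 4 measured relatives of the Sprouty, Spred and Etv5 genes (Etv1, Etv4, Spry4 and Spred3) were higher in KO cells with either vector (median 0.53 in ERT2 and 0.56 in Cre-ERT2 cells). By limma, 0 of the 4 were called for β-catenin in either background, and 1 (Etv1, in WT cells) had an unadjusted p under 0.05. Etv1, a PEA3-group factor like ETV5, measured 6.84 to 6.91 in ERT2 WT and 7.60 to 7.76 in ERT2 KO libraries and rose by 0.78 (SE 0.049, limma adjusted p 2.69e-08). Spry4, a further Sprouty gene, measured 7.91 to 7.98 and 8.61 to 8.68 in the same groups, a rise of 0.70 (SE 0.030, adjusted p 6.17e-10).

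Of 11 measured transcripts from a list of genes that respond to ERK, 7 were higher (29.8% of all genes with ERT2 and 30.4% with Cre-ERT2) and 1 lower (29.3% and 28.6%) in KO cells with either vector. The median was 0.39 in ERT2 and 0.32 in Cre-ERT2 cells. The list holds early-response factors such as Egr1 and Fos. Phlda1, which encodes a protein with a pleckstrin homology-like domain, was called higher in all 4 comparisons, as Etv5 was. Its level was 9.04 to 9.13 in ERT2 WT, 9.61 to 9.68 in Cre-ERT2 WT, 9.97 to 10.02 in ERT2 KO and 11.06 to 11.14 in Cre-ERT2 KO libraries. It rose with β-catenin by 0.58 in WT cells (limma adjusted p 1.4e-07) and by 1.11 in KO cells (adjusted p 1.46e-10), and the responses differed by 0.54 (SE 0.044, adjusted p 1.88e-05). Epha2, an ephrin receptor kinase, rose with β-catenin by 0.55 and 0.69 (adjusted p 1.4e-07 and 1.08e-08) but fell by 1.46 after editing in ERT2 cells (adjusted p 5.3e-13). Ier3, an early-response gene, rose by 0.91 after editing in ERT2 cells (adjusted p 4.61e-09) and fell by 0.17 with β-catenin in KO cells (adjusted p 0.0329, lost in 6 of 21 alternatives). With a pseudocount of 64 added to the unlogged values, which draws in low levels, these Ier3 values were 0.55 and -0.11. Junb, an AP-1 subunit, fell by 0.18 with β-catenin in KO cells (adjusted p 0.00225), and its fall of 0.11 in WT cells (adjusted p 0.0463) was lost in 16 of 22 alternatives. With β-catenin, 2 of the 11 were called higher and 1 lower in WT cells, and 2 and 2 in KO cells.

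**Figure D4:**
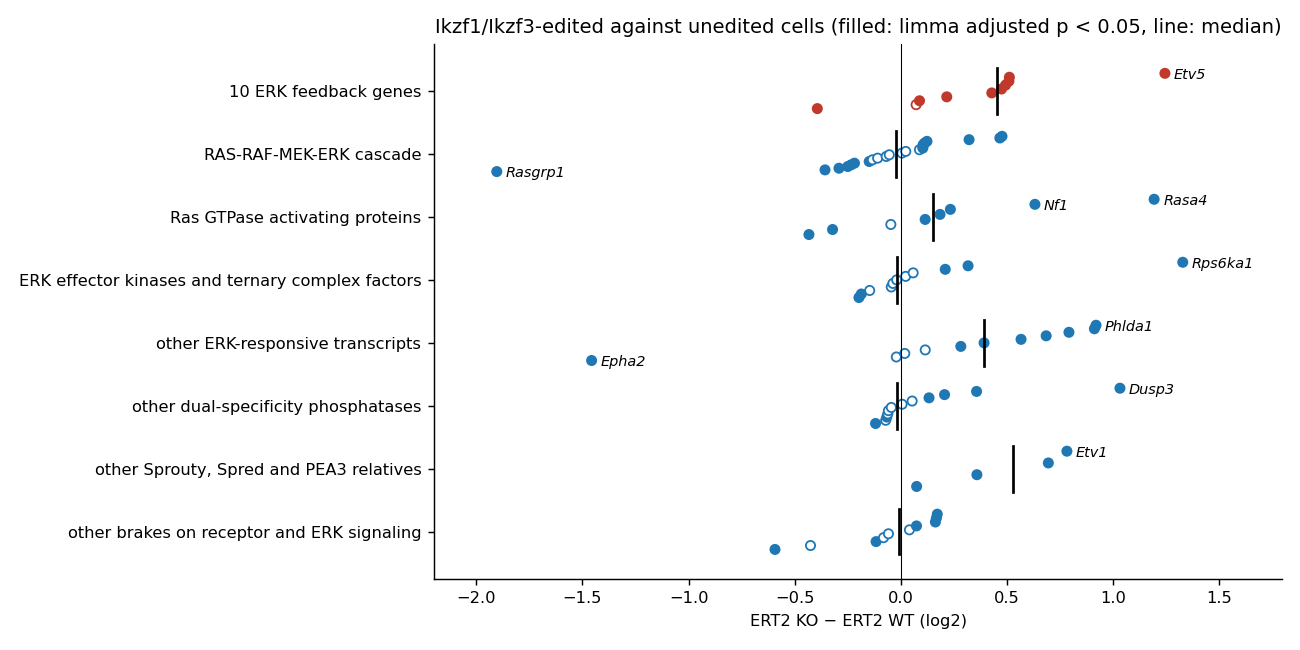
Change after Ikzf1 and Ikzf3 editing in ERT2 cells (log2, horizontal axis) for the 10 genes (red) and for the genes of the 7 pathway lists (blue), 1 row per list. Each point is a gene, filled where limma called it at an adjusted p under 0.05, and black lines are medians. The medians of the 10 genes (0.45), the Sprouty, Spred and PEA3 relatives (0.53) and the ERK-responsive transcripts (0.39) lie to the right of 0, whereas that of the RAS-RAF-MEK-ERK cascade is -0.024.

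The RAS-RAF-MEK-ERK cascade itself was measured for 22 of 23 listed genes. In ERT2 cells 8 were higher and 7 lower after editing, in Cre-ERT2 cells 5 and 10, and with β-catenin 1 and 3 in WT cells and 2 and 3 in KO cells. Rasgrp1, a diacylglycerol-dependent activator of RAS in lymphocytes, had the largest change. It measured 10.97 to 11.01 in ERT2 WT, 10.71 to 10.78 in Cre-ERT2 WT, 9.04 to 9.12 in ERT2 KO and 9.18 to 9.34 in Cre-ERT2 KO libraries. After editing it fell by 1.90 in ERT2 cells (SE 0.039, limma adjusted p 5.34e-13). With β-catenin it fell by 0.24 in WT cells and rose by 0.19 in KO cells, a difference of 0.43 (SE 0.055, adjusted p 0.000642). The related Rasgrp2 fell by 0.36 after editing in ERT2 cells, and by 0.18 and 0.22 with β-catenin in WT and KO cells (adjusted p 4.2e-07, 0.00136 and 0.00027). Map2k1, the MEK1 kinase gene, and Gab1, a docking adaptor, rose by 0.48 and 0.47 after editing (adjusted p 7.1e-09 and 2.36e-06). Changes of 0.12 in Nras (WT cells), 0.14 in Braf and -0.12 in Gab2 (KO cells) were also called with β-catenin (adjusted p 0.00971, 0.0235 and 0.0111), and that of Braf was lost in 5 of 22 alternatives.

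Among 8 measured RAS GTPase activating proteins, which switch RAS off, 5 were higher and 2 lower in KO cells with either vector. Rasa4 rose by 1.195 and Nf1, the gene of neurofibromin, by 0.63 in ERT2 cells (limma adjusted p 2.68e-11 and 4.94e-08). Dab2ip and Rasal3 fell by 0.43 and 0.32 (adjusted p 2.02e-06 and 5.5e-06). With β-catenin, 0 of the 8 were called in WT cells (1 at an unadjusted p under 0.05) and 2 fell in KO cells, Dab2ip by 0.29 (adjusted p 0.000634) and Rasal3 by 0.13 (adjusted p 0.0356, lost in 7 of 22 alternatives).

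Of 11 kinases and transcription factors that ERK acts on, 3 were higher and 2 lower after editing in ERT2 cells, and 2 and 2 in Cre-ERT2 cells. Rps6ka1, which encodes the ERK-activated kinase RSK1, measured 8.82 to 8.85 in ERT2 WT and 10.13 to 10.24 in ERT2 KO libraries. It rose by 1.33 after editing (SE 0.034, limma adjusted p 3.93e-12) and by a further 0.24 with β-catenin in KO cells (adjusted p 0.000491). Rps6ka2 rose by 0.32 after editing in ERT2 cells (adjusted p 1.13e-06), while Mknk1 and Rps6ka4 fell by 0.20 and 0.19 (adjusted p 0.0134 and 0.0312, lost in 2 and 6 of 22 alternatives, with Rps6ka4 at -0.12 without ERT2 KO replicate 1). With β-catenin, 3 were higher in WT cells, led by the ternary complex factor Elk4 (0.27, adjusted p 0.00154) and Mknk2 (0.17, adjusted p 0.0282, lost in 6 of 22 alternatives), and 1, Rps6ka1, in KO cells.

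Measurements covered 12 other genes of the dual-specificity phosphatase family, listed by family and not for acting on ERK. After editing 4 were higher and 2 lower in ERT2 cells and 4 and 1 in Cre-ERT2 cells (median -0.019 and -0.027), and with β-catenin 0 were called by limma in WT cells (3 at an unadjusted p under 0.05) and 1 in KO cells. Dusp3, which also acts on other kinases, rose by 1.03 after editing in ERT2 cells (limma adjusted p 5.18e-08) and fell by 0.34 with β-catenin in KO cells (adjusted p 0.0068). Dusp9 rose by 0.36 (adjusted p 1.07e-08), and Dusp12 and Dusp28 fell by 0.12 and 0.065 after editing in ERT2 cells (adjusted p 0.00307 and 0.0297, the latter lost in 4 of 21 alternatives, with values from -0.11 to -0.032 over all 21). With the pseudocount of 64 the Dusp9 rise was 0.17.

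The remaining list holds 10 measured brakes at the level of receptors and adaptors. In it 4 genes were higher and 2 lower after editing in ERT2 cells, 5 and 4 in Cre-ERT2 cells, and 1 and 1 in each β-catenin comparison. Il17rd, which encodes the FGF and ERK inhibitor SEF, measured 6.16 to 6.17 in ERT2 WT, 6.42 to 6.44 in Cre-ERT2 WT, 6.04 to 6.06 in ERT2 KO and 6.51 in each Cre-ERT2 KO library. It rose with β-catenin by 0.26 in WT cells (limma adjusted p 1.21e-06) and by 0.46 in KO cells (adjusted p 4.11e-09), a difference of 0.19 (SE 0.026, adjusted p 0.000817), and fell by 0.12 after editing in ERT2 cells. Its level is low, and with the pseudocount of 64 the responses were 0.15 and 0.25, their difference 0.11 and the editing change -0.060, all still called. Under quantile normalization the editing change was -0.18. The phosphatase gene Ptpn6 fell by 0.15 with β-catenin in WT cells (adjusted p 0.0356, lost in 8 of 22 alternatives), and the adaptor gene Sh2b3 by 0.19 in KO cells (adjusted p 0.000565). After editing in ERT2 cells, Pebp1, a RAF inhibitor, and the adaptor Dok1 both rose by 0.17 (adjusted p 0.000252 and 6.44e-05), and the ubiquitin ligase gene Cbl fell by 0.59 with a wide error (SE 0.13, adjusted p 0.00181, and -0.34 with the pseudocount of 64).

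Among the genes whose values across the 12 libraries were most like those of Dusp5 were Nomo1 (Pearson r = 0.97), Kcnab2 (0.951), Nov (0.949) and Sema6d (0.948). The 12 libraries fall into 4 groups, so these coefficients describe a shared order of groups, and no test was made. After editing in ERT2 cells Nov changed by -0.69 and Nomo1 by -0.17, beside -0.39 for Dusp5. Within the 10 genes, the values of Dusp5 ran most opposite to those of Dusp4 (r = -0.966), Dusp6 (-0.909) and Etv5 (-0.908), over the same 12 libraries.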

How the data were processed

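RNA libraries from 12 samples in 4 groups were analyzed. Groups and replicate numbers were taken from the sample titles. According to the submitters' processing notes and the study's methods, reads were quantified with Salmon 1.4.0, aligned with STAR 2.7.6 to mm10 and analyzed with DESeq2 1.30.1. The table deposited by the authors holds normalized log2 values of 12151 genes. The transformation is not stated, and a compressed scale would understate changes of weakly expressed genes and the spread between replicates. No counts were used, the depth of each library is unknown, and the number of replicates limits precision.

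A linear model with 4 group means was fitted to the values as deposited, for all genes and libraries (limma 3.58.1 in R 4.3.3, eBayes with a mean-dependent prior). P values were adjusted over all 12151 genes with the Benjamini-Hochberg method, in 5 comparisons, and genes were called at an adjusted p under 0.05. Intervals are 95% intervals from this model. The steps were tested on simulated data. The planned log2(value + 1) step was not needed, since values were already log2. Single genes were also compared by a 2-sided exact permutation test. Alternatives covered scaling, pseudocount, a low-expression filter, the libraries fitted, a replicate block, the variance prior, the threshold and the omission of each library.

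The 10 genes and the 7 lists, written from general knowledge, were chosen with earlier results of these data known. Named were all 10 genes, the 2 largest called rises and falls of each list in the β-catenin comparisons and after editing in ERT2 cells, and the 5 genes most correlated with Dusp5. Of these 5, 1 is not reported here. Gene positions come from GENCODE (GRCm38, the authors' build) and promoter windows from RefSeq (GRCm38.p6). Figures were drawn with matplotlib 3.10.9 in Python 3.11.15.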

Additional observations from a re-analysis of the deposited data

Results flagged for a closer look

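The response to stabilized β-catenin differed between KO and WT cells for 3 of the 10 genes, by a limma test of the difference itself over all genes. All 3 differences were positive, as were those called for 2.71% of all genes, while 1.82% were called negative. Spry1 changed by 0.2804 more in KO than in WT cells, with all 3 Cre-ERT2 KO libraries above, and all 3 Cre-ERT2 WT libraries below, their ERT2 controls. Etv5 changed by 0.1927 more, with a rise in both backgrounds. For Dusp5 the difference was 0.1887, a smaller fall in KO cells (limma adjusted p 0.0457). That call was lost in 13 of 21 alternatives. Groups of 3 libraries are too small for a check for single outlying values.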

How the results depend on the processing

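Of the 50 changes of the 10 genes, 39 kept their side of the threshold in all 21 or 22 alternatives. The other 11 crossed it in 1 or more. No called change of these genes reversed its direction. The Spred1 difference in response, which was not called, ran from -0.018 to 0.076. Among 165 changes of named list genes, 134 kept their side of the threshold throughout and 31 crossed it. Some uncalled changes of list genes also changed sign, such as Gab1 with β-catenin in WT cells (-0.058 to 0.0020). The number of the 10 genes with a called difference in response fell from 3 to 1 at an adjusted p under 0.01 (Spry1), because that threshold is stricter. With each library left out in turn, the number of genes called ranged from 4 to 5 for β-catenin in WT cells, 5 to 7 in KO cells, 9 to 10 for editing in ERT2 cells, 8 to 9 in Cre-ERT2 cells and 2 to 4 for the difference. With the replicate block the numbers were 5, 7, 9, 8 and 2, and the Dusp5 difference was no longer called (0.1887, adjusted p 0.0724), nor was it after quantile normalization (adjusted p 0.0818). The replicate block moved the calls over all genes from 1443, 1531, 7175, 7161 and 550 to 1361, 1374, 7089, 7108 and 424. Libraries with the same number shared only that number: in 18 pairs of groups and numbers their deviations correlated by -0.101 to 0.244, above 0.1 in 1, and 6 of 12 libraries correlated best with one of their own number. Fitting only the libraries compared called 5 of the 10 genes for β-catenin in KO cells and all 10 for editing in ERT2 cells. The shares of all genes called in these fits are not given here, so these counts have no background. Centering or quantile normalization shifted the median of all genes by at most -0.0336. Without read counts, changes near the threshold cannot be weighed against sequencing depth.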
